A study of Mus musculus with 16 samples.

Results

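The genes described here are 34 mouse genes of the interferon response and of innate sensing of viral and bacterial molecules, out of 22375 genes in the count table. They were listed by name with earlier results of these data known, and no measured value entered the rule. All 34 symbols were matched to the Ensembl identifiers of the table, 33 of them to 1 identifier each. Psmb9 has 2 identifiers.

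Cells sense foreign RNA in endosomes through Tlr3 and in the cytoplasm through Ddx58 (RIG-I), Ifih1 (MDA5) and Dhx58 (LGP2), and these cytoplasmic receptors signal through Mavs. The signal activates interferon regulatory factors such as Irf3 and Irf7, which switch on the genes of type I interferons, and secreted interferon then acts through its receptor on a complex that holds Stat2 and Irf9, which binds the interferon-stimulated response element (ISRE) of genes such as Ifit1, Isg15 and Oas1a. Embryonic stem (ES) cells are known for a weak interferon system compared with differentiated cells.

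Total RNA depleted of ribosomal RNA was sequenced from mouse ES cells in 4 groups, each with 2 biological replicates, and each biological replicate was sequenced in 2 technical runs. The groups were WT E14Tg2a cells and Cfp1-/- cells, both of strain 129/OLA, either untreated or given doxorubicin, a DNA-damaging drug, for 6 hours at 1 μM (the treatment protocol gives 1 μM, and the treatment label gives 1 mM). Cfp1, encoded by Cxxc1, is the subunit that brings the Set1 histone methyltransferase complex to unmethylated CpG-rich promoters, and the design asks how cells without it respond to DNA damage. The Cfp1-/- cells lacked Cfp1 in both states, and the sources used here do not say how many clones they come from or whether replicates were grown separately. If they were not, the p-values measure only the spread between these samples. In every comparison between the lines, absence of Cfp1 and any other difference between the lines cannot be told apart.

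Cxxc1 had 616 to 1412 raw counts in the 4 WT replicates and 1 to 5 in the 4 Cfp1-/- replicates, which checks the genotype labels. Total counts per biological replicate ran from 14880589 to 29422711. All 8 ES cell markers (among them Pou5f1, Sox2 and Nanog) were above 3 counts in every replicate, and their summed normalized count fell from between 68890 and 93980 in untreated cells of either line to between 25030 and 35940 after treatment. Of 11 immune cell markers, Ptprc (CD45) had 5 to 17 raw counts and Lyz2 0 to 2. Their summed normalized count was 196 to 234 in untreated WT cells and 513 to 529 in treated WT cells, against 400 to 406 in untreated and 367 to 443 in treated Cfp1-/- cells, and Cd68 alone had 143 to 435 normalized counts. The 8 fibroblast markers summed to between 199 and 267 in untreated cells and to between 555 and 806 in treated cells of either line, and the 8 endoderm and mesoderm markers to between 132 and 383 in all groups. Of 10 target genes of p53, the transcription factor activated by DNA damage, 9 rose with doxorubicin in each line. Whether these marker levels have a part in any member's change was not tested, and in bulk RNA fewer cells of a type and less RNA per cell cannot be told apart. The second technical run of replicate 1 of treated Cfp1-/- cells had lost counts of chromosome 19 and of the sex chromosomes, where 439 of 529 genes with at least 200 counts in the first run had none, against 0 of 7791 genes elsewhere. Ifit1, Ifit2 and Ifit3 lie on chromosome 19. Values that rest on this replicate are therefore given below with and without that run, the affected run. The 2 runs of replicate 1 of treated WT cells also differed beyond sampling noise (chi-square per degree of freedom 9.61). No fit left out only 1 of these WT runs, while the fit on first technical runs left out the second run of every replicate.

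The ISRE is written here as its core GAAANNGAA, and the gamma-activated site (GAS), the element bound by STAT dimers, as TTCNNNGAA. Each was searched on both strands in the 300 bases around transcription starts (250 before and 50 after) that RefSeq gives for build GRCm38.p6. This build is not that of the counts (NCBIm37, mm9). The table held 39 promoters of 31 of the 34 members. The ISRE core stood in promoters of 14 of these 31 genes (45.2%), against 9.76% of the 27025 genes with a promoter in the table, and GAS in those of 11 genes (35.5%), against 9.55%. The 2 motifs can share letters, as they do in Bst2. The windows below are shown because they carry the ISRE core, with the matching letters of either strand in capitals, in genes of different behaviour: Ifit3 was higher and Bst2 lower in Cfp1-/- cells, Stat2 rose and Rsad2 fell with doxorubicin in WT cells, and Ifit1 and Isg15 passed no test in the fit without a replicate block.
Ifit3, chr19:34583359-34583450, plus strand, 3 matches: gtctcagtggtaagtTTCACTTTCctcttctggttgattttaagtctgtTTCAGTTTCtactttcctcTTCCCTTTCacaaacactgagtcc
Ifit1, chr19:34640765-34640828, plus strand, 3 matches: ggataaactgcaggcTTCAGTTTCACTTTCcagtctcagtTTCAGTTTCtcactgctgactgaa
Isg15, chr4:156200861-156200911, minus strand, 3 matches: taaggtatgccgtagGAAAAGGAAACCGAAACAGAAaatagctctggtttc
Bst2, chr8:71537573-71537617, minus strand, 2 matches: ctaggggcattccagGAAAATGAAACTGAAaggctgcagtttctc
Rsad2, chr12:26456548-26456586, minus strand, 1 match: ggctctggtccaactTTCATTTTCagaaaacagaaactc
Stat2, chr10:128270262-128270300, plus strand, 1 match: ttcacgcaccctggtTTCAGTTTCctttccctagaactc
Nod1 and Irf1 had no ISRE core in their promoters but each had 1 match to GAS. Both genes changed with doxorubicin in both lines, and their windows are shown here as examples. Isg20 and Ifi35 also had GAS without the ISRE core and changed in both lines, and their windows are not shown.
Nod1, chr6:54971831-54971869, minus strand: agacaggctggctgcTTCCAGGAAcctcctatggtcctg
Irf1, chr11:53769909-53769947, plus strand: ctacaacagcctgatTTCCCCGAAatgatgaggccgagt
These matches are letters in a window, not measured binding sites.

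Levels below are the authors' normalized read counts per biological replicate, replicate 1 first. A library with at most 3 raw reads for a gene is taken as at the floor. Of the 34 members, 25 were above the floor in all 8 libraries. Tmem173, Irf7, Ifit1, Ifit3, Oasl1, Rsad2, Isg15 and Usp18 were at the floor in some libraries, and Psmb9 was at the floor in every library. The 0 of Psmb9 carries no information, because its 2 identifiers overlap over 3647 bases of exon on the same strand and reads that match 2 genes were left uncounted. Per kb of exon, the highest members in every group were the Ifitm genes, which encode membrane proteins that block virus entry. Ifitm2 had 1350 normalized counts per kb in untreated WT and 2490 in untreated Cfp1-/- cells, and no member outside the Ifitm genes passed 405, the value of B2m in treated WT cells. Tmem173 reached at most 6.96 normalized counts per kb and Irf7 at most 4.86. The mean was highest in a Cfp1-/- group for 19 of the members, and how often this holds over all genes was not counted.

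**Figure D1:**
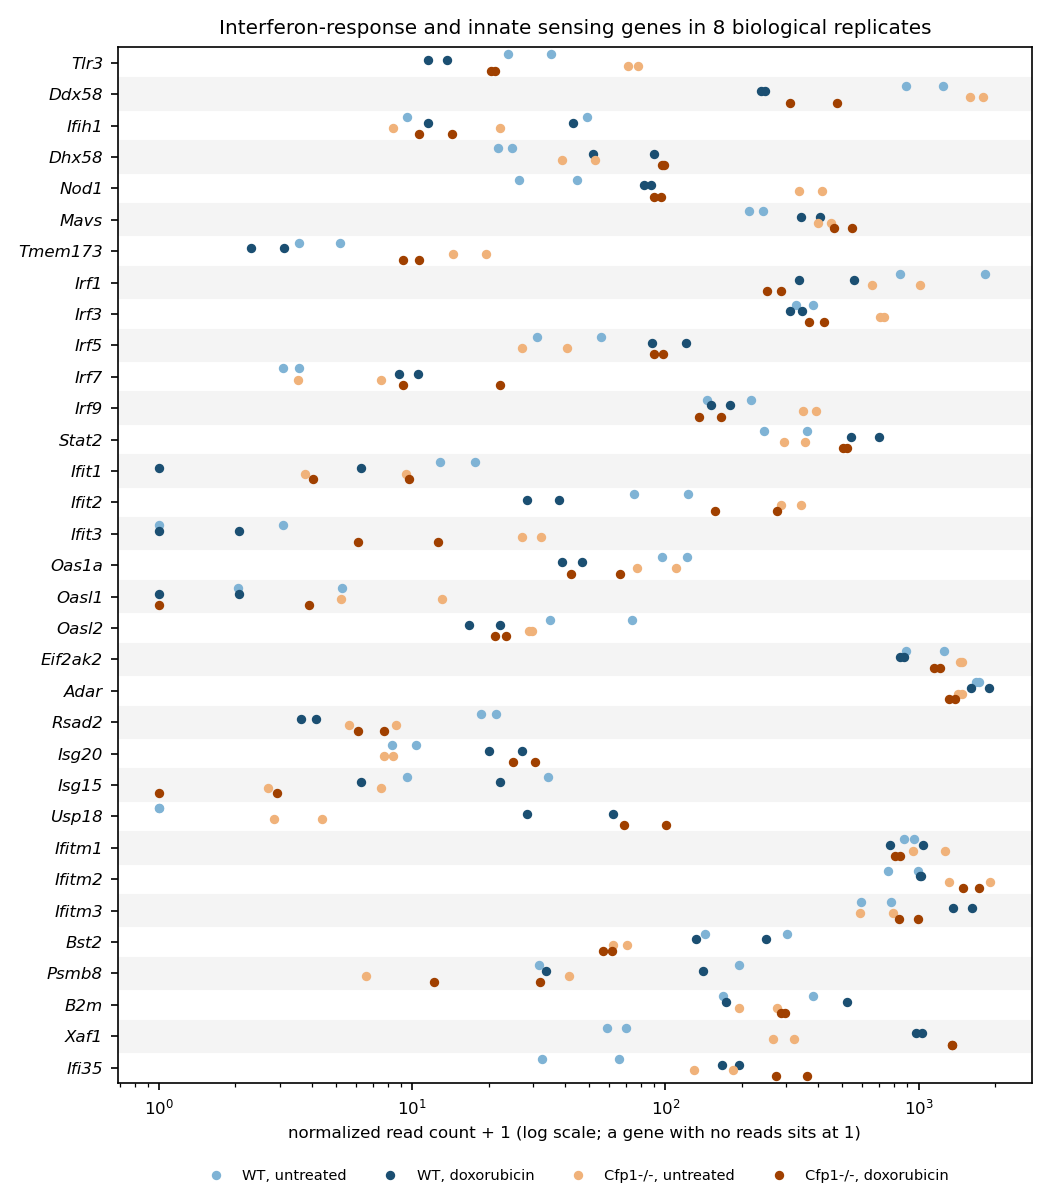
Normalized read counts plus 1 (log axis) of 33 members in the 8 biological replicates, coloured by group, with 2 points per group. Ifitm genes, Adar and Eif2ak2 sit at the high end in all groups, and the points of Xaf1, Usp18 and Nod1 separate by treatment or genotype.

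The edgeR quasi-likelihood test could be run on 32 members (not on Oasl1 or Psmb9), with p-values adjusted over all 15758 genes tested. Doxorubicin changed many genes of either line. In WT cells 10 members rose (31.2%, background 26.5%) and 7 fell (21.9%, background 21.8%) at an adjusted p under 0.05. Among Cfp1-/- cells 7 rose (21.9%, background 27.8%) and 7 fell (21.9%, background 21.0%). These shares are near those of all genes. The members' median response on the log2 scale was -0.03 for WT and -0.11 for Cfp1-/- cells, where all genes had 0.06 and 0.01. The study's limits also ask for a 2.5-fold change and 200 normalized counts on average. Ddx58, Irf1 and Xaf1 passed them in WT cells (3 members, 9.38%, background 7.91%), and these and Nod1 in Cfp1-/- cells (4 members, 12.5%, background 7.61%). Groups without overlap, named below for single genes, were common. Treated and untreated WT libraries did not overlap for 22 of 32 members and 11585 of 15758 genes, and those of Cfp1-/- cells for 26 and 12206. Between the lines the numbers were 21 and 11008 untreated and 22 and 10244 treated. Separations across all 8 libraries were not counted over all genes.

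Dhx58, Irf5, Stat2, Isg20, Usp18, Xaf1 and Ifi35 rose in both lines, Tlr3, Ddx58 and Irf1 fell in both, and Nod1 rose in WT and fell in Cfp1-/- cells. Mavs and Ifitm3 rose and Ifit2, Oas1a, Oasl2 and Rsad2 fell at the threshold in WT cells alone, and Irf3, Irf9 and Ifit3 fell at it in Cfp1-/- cells alone. The response itself differed between the lines for 2 members, Nod1 and Xaf1 (background 0.235% of genes), so for the other members a call in 1 line does not show a different response. With scaling by total counts the median log2 change of all genes moved from 0.06 to 0.37 in WT and from 0.01 to 0.23 in Cfp1-/- cells, and all changes below are relative to the TMM-scaled value.

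Between untreated lines, 12 members were higher in Cfp1-/- cells (37.5%, background 17.9%) and 2 were lower (6.25%, background 16.1%). The median difference of the members was 0.39 on the log2 scale, against 0.01 over all genes. After treatment 4 were higher (12.5%, background 15.1%) and 2 lower (6.25%, background 10.8%), with a median of 0.33 against 0.02. With the replicate number as a block, which pairs libraries of the same number, the counts were 15 higher and 4 lower among untreated cells (background in that fit 22.3% and 21.3%) and 10 higher and 5 lower among treated cells (background 20.5% and 16.2%).

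**Figure D2:**
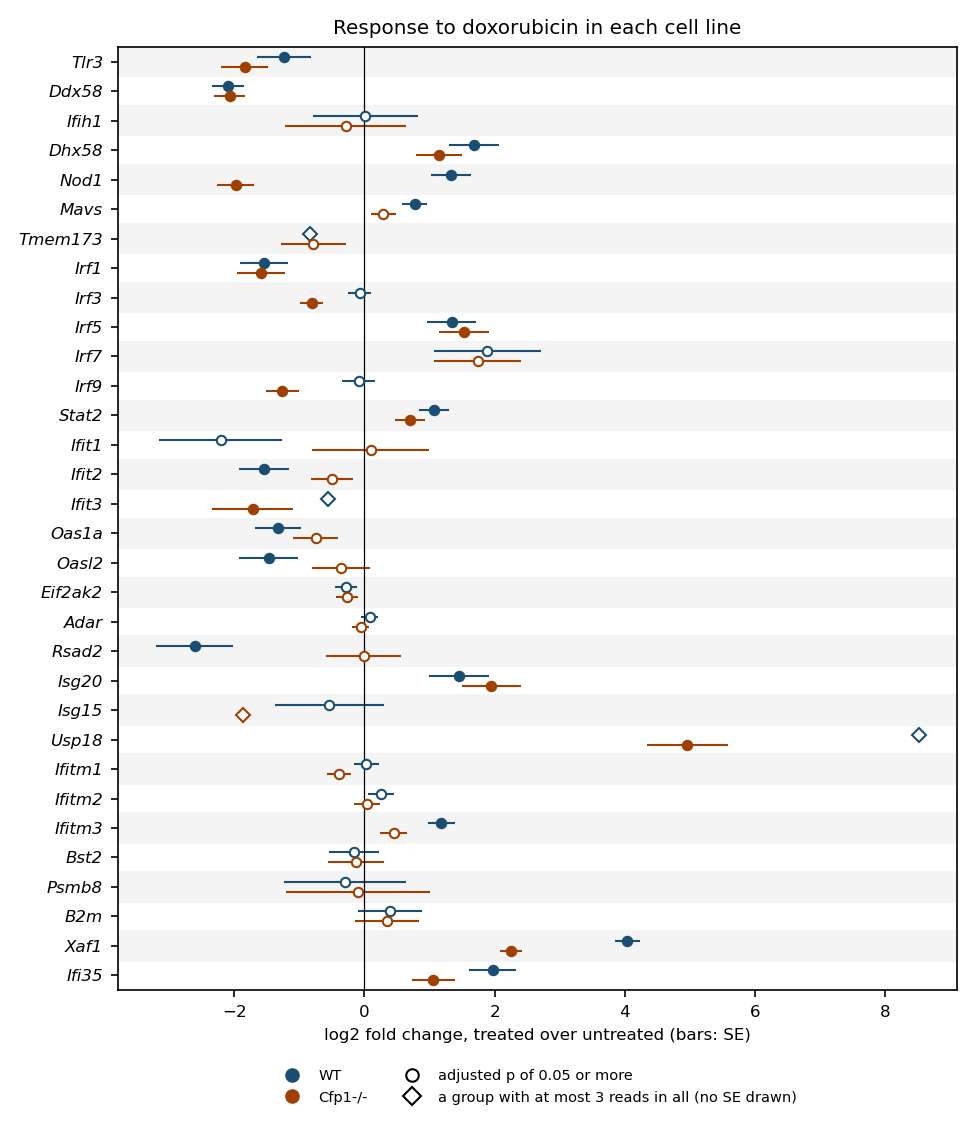
Log2 fold change with doxorubicin (treated over untreated) of 32 members in WT and Cfp1-/- cells, with SE bars. Filled symbols passed an adjusted p of 0.05, and diamonds mark fits in which a group had at most 3 reads in all. Nod1 lies at 1.33 in WT and at -1.98 in Cfp1-/- cells.

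Of 7 sensors and adaptors, 3 rose and 2 fell in WT and 1 rose and 3 fell in Cfp1-/- cells (backgrounds as above). Ddx58, the cytoplasmic sensor of RNA with a 5′ triphosphate (chromosome 4, 40150806 to 40186861, minus strand), had 1246 and 892 normalized counts in untreated WT cells, 237 and 247 in treated WT cells, 1805 and 1591 in untreated Cfp1-/- cells and 477 and 309 in treated Cfp1-/- cells. The treated libraries of either line all lay below all untreated ones. Its log2 change was -2.10 (SE 0.241, adjusted p = 0.000111) in WT and -2.07 (SE 0.236, adjusted p = 0.00011) in Cfp1-/- cells, and the difference between these responses was 0.03 (SE 0.325). Untreated Cfp1-/- cells had 0.70 more (SE 0.226, adjusted p = 0.0388), a call lost without replicate 2 of untreated WT (0.47) or either untreated Cfp1-/- replicate (0.62 and 0.79). Among treated cells the genotype difference was 0.72 (adjusted p = 0.0509), whose adjusted p was 0.0106 in the block fit and 0.0496 when the affected run was left out.

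Tlr3, the endosomal receptor of double-stranded RNA (chromosome 8, 46481019 to 46495962, minus strand), had 22.9 and 34.4 normalized counts in untreated and 10.5 and 12.7 in treated WT cells, and 76.9 and 70.1 in untreated and 19.4 and 20.2 in treated Cfp1-/- cells. Both untreated Cfp1-/- libraries were above every other library. Tlr3 fell in Cfp1-/- cells by 1.84 on the log2 scale (SE 0.362, adjusted p = 0.00245) and in WT cells by 1.24 (SE 0.411, adjusted p = 0.0314). Of these, the WT call was lost in the DESeq2 Wald test (adjusted p = 0.0696), with scaling by total counts (adjusted p = 0.0928), and without replicate 2 of untreated WT (-0.94), either treated WT replicate (-1.12 and -1.39) or replicate 1 of untreated Cfp1-/- cells (-1.24). In untreated cells the Cfp1-/- excess was 1.39 (SE 0.349, adjusted p = 0.0134), lost without replicate 1 of untreated WT (1.13) or of untreated Cfp1-/- cells (1.34).

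Dhx58, a regulator of Ddx58 and Ifih1 that binds RNA but does not signal itself (chromosome 11, 100556018 to 100565585, minus strand), moved the opposite way from Ddx58. It had 23.8 and 20.8 normalized counts in untreated and 89.1 and 50.7 in treated WT cells, and 51.9 and 38.0 in untreated and 96.0 and 97.4 in treated Cfp1-/- cells. The untreated and treated libraries of a line did not overlap. The log2 rise was 1.68 (SE 0.38, adjusted p = 0.00532) in WT and 1.15 (SE 0.352, adjusted p = 0.0224) in Cfp1-/- cells, and the second was lost without replicate 2 of untreated (0.92) or either replicate of treated Cfp1-/- cells (1.14 each). Untreated Cfp1-/- cells were 1.03 above WT (adjusted p = 0.0622, and 0.03 with the block). The third of these RNA helicases, Ifih1, ranged from 7.42 to 48.0 normalized counts and passed no test. Replicate 2 was higher than replicate 1 in 3 of the 4 groups, with 8.49 and 48.0 in untreated and 10.5 and 42.2 in treated WT cells.

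Mavs, the mitochondrial adaptor of these helicases (chromosome 2, 131059799 to 131073761, plus strand), had 241 and 212 normalized counts in untreated and 407 and 341 in treated WT cells, and 450 and 401 in untreated and 547 and 461 in treated Cfp1-/- cells. Untreated WT libraries were below all others. The log2 rise in WT cells was 0.77 (SE 0.194, adjusted p = 0.00912), lost without replicate 2 of untreated (0.66) or replicate 1 of treated WT (0.63), and the excess in untreated Cfp1-/- cells was 0.94 (SE 0.193, adjusted p = 0.00554). In Cfp1-/- cells the response was 0.29 (SE 0.189, adjusted p = 0.238). Among treated cells the difference of 0.46 had an adjusted p of 0.107, and of 0.0405 with the block. Tmem173 (STING, the adaptor of cytoplasmic DNA sensing, on chromosome 18) was low throughout. Its raw counts were 3 and 4 in untreated and 1 and 2 in treated WT cells, and 20 and 16 in untreated and 8 and 10 in treated Cfp1-/- cells. Every Cfp1-/- library exceeded every WT library. The log2 difference among untreated cells was 2.26 (SE 0.575, adjusted p = 0.0142), lost without replicate 1 (1.95) or 2 (2.62) of untreated WT or replicate 1 of untreated Cfp1-/- cells (2.04). Among treated cells the ratio of summed counts was 5.09, with an exact 95% interval of 1.49 to 27 that covers counting error only. That call (adjusted p = 0.0446) was lost without any 1 of the 8 replicates, with fitted log2 values of 2.04 to 2.68, and the DESeq2 Wald test called Tmem173 in neither state (adjusted p = 0.104 and 0.179).

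Nod1, a cytoplasmic receptor of bacterial peptidoglycan fragments that signals to NF-kappaB (chromosome 6, 54873936 to 54922606, minus strand), was the member with opposite responses. It had 25.5 and 43.8 normalized counts in untreated WT cells and 81.2 and 86.6 in treated WT cells. In Cfp1-/- cells it had 336 and 415 untreated and 88.8 and 95.4 treated. The treated libraries of the lines lay close together, between 81.2 and 95.4, while the untreated ones lay far apart on either side. Nod1 rose by 1.33 on the log2 scale in WT cells (SE 0.306, adjusted p = 0.00557) and fell in Cfp1-/- cells by 1.98 (SE 0.279, adjusted p = 0.000378). The difference between the responses was -3.32 (SE 0.413, adjusted p = 0.0317, and 0.0023 with the block). Untreated Cfp1-/- cells were 3.48 above untreated WT cells (SE 0.305, adjusted p = 0.000106), and treated cells differed by 0.16 (SE 0.286, adjusted p = 0.714). Both responses and the untreated difference were called in all 8 fits that left out 1 library. The call of the response difference was lost without either treated WT replicate (-3.37 and -3.27), either untreated Cfp1-/- replicate (-3.47 and -3.17) or either treated Cfp1-/- replicate (-3.28 and -3.36), where adjusted p was 0.0552 to 0.156.

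**Figure D3:**
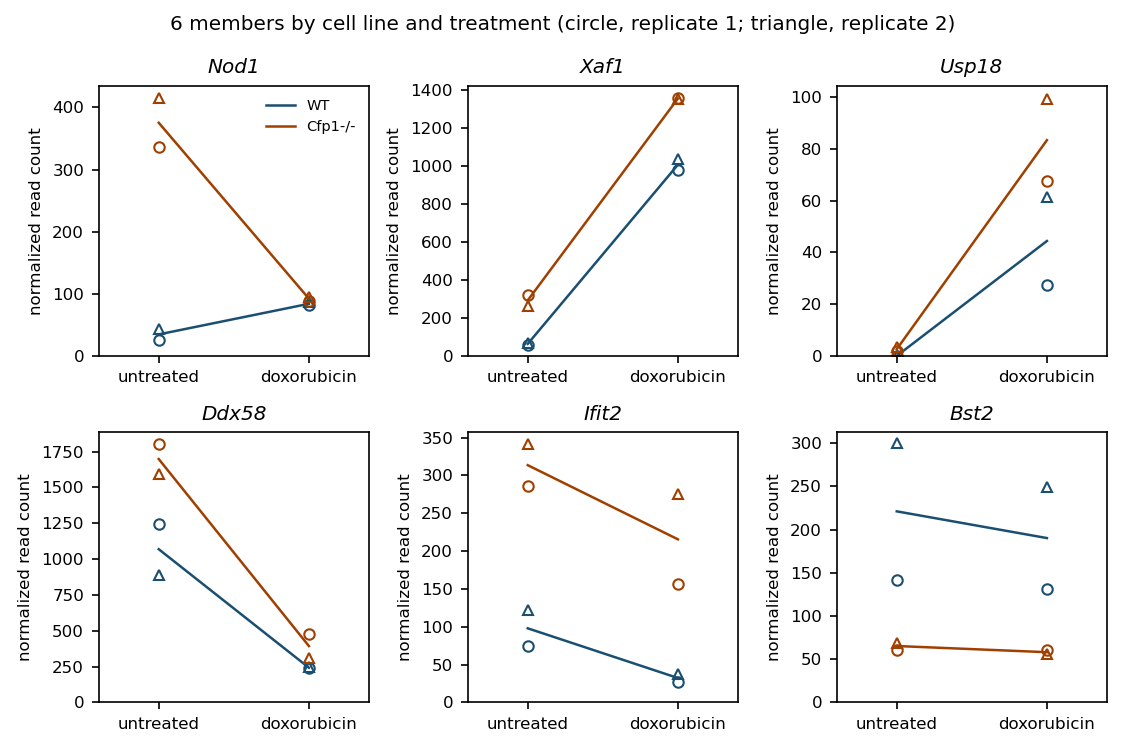
Normalized read counts of Nod1, Xaf1, Usp18, Ddx58, Ifit2 and Bst2 in untreated and doxorubicin-treated WT and Cfp1-/- cells, with each replicate as a symbol and lines between group means. The Nod1 lines meet between 81.2 and 95.4 after treatment, those of Ddx58 run downwards in both lines, and those of Bst2 stay apart.

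Of the interferon regulatory factors, Irf1 fell and Irf5 rose in both lines. Irf1, an activator of antiviral and antigen presentation genes (chromosome 11, 53583516 to 53591876, plus strand), had 846 and 1830 normalized counts in untreated and 335 and 553 in treated WT cells, and 651 and 1017 in untreated and 284 and 252 in treated Cfp1-/- cells. All untreated libraries were above all treated ones, and untreated replicate 2 exceeded replicate 1 in both lines. Irf1 fell by 1.54 on the log2 scale in WT (SE 0.37, adjusted p = 0.00712) and by 1.59 in Cfp1-/- cells (SE 0.375, adjusted p = 0.00628). The first call was lost without replicate 2 of untreated WT (-0.89, adjusted p = 0.054) and the second without replicate 2 of treated Cfp1-/- cells (-1.50, adjusted p = 0.0545). Untreated Cfp1-/- cells were lower by 0.65 (adjusted p = 0.187, and 0.0465 with the block, where the value was -0.61). Irf5, a factor downstream of Toll-like receptors (chromosome 6, 29476625 to 29491869, plus strand), had 54.4 and 30.2 normalized counts in untreated and 87.8 and 120 in treated WT cells, and 39.9 and 26.2 in untreated and 88.8 and 96.4 in treated Cfp1-/- cells. Every treated library exceeded every untreated library. The log2 rises were 1.34 (SE 0.373, adjusted p = 0.0147) and 1.53 (SE 0.379, adjusted p = 0.00821). The WT call was lost without replicate 2 of untreated (0.97) or treated (1.08) WT, and the Cfp1-/- call without replicate 2 of untreated Cfp1-/- cells (1.24).

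Irf3 and Irf9 shared a pattern: a higher level in untreated Cfp1-/- cells and a fall there with doxorubicin. Irf3, the factor that Mavs and Tmem173 activate to start interferon transcription (chromosome 7, 52253018 to 52258218, plus strand), had 382 and 328 normalized counts in untreated and 347 and 309 in treated WT cells. Its counts were 727 and 701 in untreated and 422 and 367 in treated Cfp1-/- cells. Irf9, the DNA-binding partner of Stat2 (chromosome 14, 56222408 to 56228867, plus strand, sharing 123 bases of exon with Rnf31), had 216 and 145 in untreated and 179 and 151 in treated WT cells, and 349 and 392 in untreated and 165 and 135 in treated Cfp1-/- cells. For both genes the untreated Cfp1-/- libraries stood above the other 6. Untreated Cfp1-/- cells exceeded WT by 1.03 for Irf3 (SE 0.175, adjusted p = 0.00223) and by 1.06 for Irf9 (SE 0.249, adjusted p = 0.00992) on the log2 scale, the latter lost without replicate 2 of untreated WT (0.80) or Cfp1-/- cells (0.98). The response in Cfp1-/- cells was -0.81 for Irf3 (SE 0.174, adjusted p = 0.00386) and -1.26 for Irf9 (SE 0.252, adjusted p = 0.00267), and in WT cells it was -0.07 and -0.09. The tests of the difference between responses gave -0.74 (SE 0.247, adjusted p = 0.32) and -1.17 (SE 0.356, adjusted p = 0.282).

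Stat2, which carries the transactivation domain of the interferon-stimulated complex (chromosome 10, 127707629 to 127729905, plus strand), had 360 and 245 normalized counts in untreated and 697 and 538 in treated WT cells, and 356 and 294 in untreated and 522 and 503 in treated Cfp1-/- cells. Treated libraries of both lines were above all untreated ones. It rose by 1.07 (SE 0.23, adjusted p = 0.00394) in WT and by 0.70 (SE 0.228, adjusted p = 0.0291) in Cfp1-/- cells on the log2 scale. The Cfp1-/- call was lost without either untreated (0.84 and 0.55) or either treated (0.65 and 0.73) Cfp1-/- replicate. Irf7, the factor that amplifies interferon production, had 2 to 22 raw counts, with 3 and 2 in untreated and 6 and 9 in treated WT cells. Its fitted log2 changes of 1.89 in WT (adjusted p = 0.0829) and 1.74 in Cfp1-/- cells (adjusted p = 0.0552) did not pass.

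Of 9 antiviral effectors tested, 4 fell and Isg20 rose in WT cells with doxorubicin, and Ifit3 fell and Isg20 rose in Cfp1-/- cells (background 21.8% lower and 26.5% higher in WT, 21.0% and 27.8% in Cfp1-/- cells). Ifit2, which binds viral RNA and blocks its translation (chromosome 19, 34625184 to 34650909, plus strand), had 73.9 and 122 normalized counts in untreated and 27.5 and 37.0 in treated WT cells, and 286 and 341 in untreated and 156 and 275 in treated Cfp1-/- cells. Every Cfp1-/- library exceeded every WT library. The lowest Cfp1-/- value comes from the replicate with the affected run, whose 2 runs had 153 and 0 reads. Cfp1-/- cells were higher by 1.71 untreated (SE 0.339, adjusted p = 0.00466) and by 2.75 treated (SE 0.378, adjusted p = 0.00138) on the log2 scale, and by 3.01 treated (adjusted p = 0.000414) without the affected run. Ifit2 fell in WT cells by 1.54 (SE 0.381, adjusted p = 0.00827), a call lost without replicate 2 of untreated WT (-1.15, adjusted p = 0.0501). In Cfp1-/- cells the change was -0.50 (adjusted p = 0.234), -0.54 with the block (adjusted p = 0.0486) and -0.24 without the affected run (adjusted p = 0.485).

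Ifit3, another RNA-binding member of that family (chromosome 19, 34658021 to 34663221, plus strand), had at most 2 counted reads in any WT library. Reads that match more than 1 gene were left uncounted, and how many Ifit3 lost that way was not tested. Its raw counts were 0 and 2 in untreated and 0 and 1 in treated WT cells, and 28 and 37 in untreated and 5 and 12 in treated Cfp1-/- cells, of which replicate 1 treated had 5 and 0 in its 2 runs. The lines did not overlap in either state. The ratio of summed counts, Cfp1-/- over WT, was 30.7 untreated (exact 95% counting interval 8.16 to 259) and 14.4 treated (2.26 to 603). The untreated difference had an adjusted p of 0.00314 and was called in all 8 fits that left out 1 library. The treated one had an adjusted p of 0.0465 (0.0278 without the affected run and 0.0924 in the DESeq2 Wald test), and was lost without either treated WT replicate, either untreated Cfp1-/- replicate or either treated Cfp1-/- replicate (adjusted p up to 0.223). Its fall in Cfp1-/- cells by 1.72 on the log2 scale (SE 0.623, adjusted p = 0.0442) became -1.47 with an adjusted p of 0.065 without the affected run, and was also lost in the DESeq2 Wald test (adjusted p = 0.169) and without any 1 of the 4 Cfp1-/- replicates (-1.28 to -2.41).

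Ifit1, the neighbour that recognises RNA lacking the host cap methylation (chromosome 19, 34715361 to 34724499, plus strand), had 14 and 16 raw counts in untreated and 0 and 5 in treated WT cells, and 3 and 10 in untreated and 3 and 9 in treated Cfp1-/- cells. Ifit1, unlike Ifit2 and Ifit3, was not higher in untreated Cfp1-/- cells, where the log2 difference was -1.27 (SE 0.799, adjusted p = 0.244). The WT response was -2.21 (adjusted p = 0.0791, and 0.0221 with the block). Replicate 1 of treated Cfp1-/- cells had 3 and 0 reads in its 2 runs, and the Cfp1-/- response was 0.10 with and 0.33 without the affected run (adjusted p = 0.94 and 0.778). Rsad2 (viperin, chromosome 12, 27127618 to 27141317, minus strand) had 24 and 17 raw counts in untreated and 2 and 3 in treated WT cells, against 5 and 9 in untreated and 5 and 7 in treated Cfp1-/- cells. Untreated WT libraries were above the other 6. It fell in WT cells by 2.61 on the log2 scale (SE 0.596, adjusted p = 0.00543), and its change in Cfp1-/- cells was -0.01 (SE 0.575), with a response difference of 2.61 (SE 0.852, adjusted p = 0.31). The lower level in untreated Cfp1-/- cells, -1.59 (SE 0.50, adjusted p = 0.0346), was lost without either untreated replicate of either line or either treated Cfp1-/- replicate (-1.27 to -1.98), and by the DESeq2 Wald test (adjusted p = 0.2).

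The 2′-5′ oligoadenylate synthetase genes make or resemble the enzymes that activate RNase L. Oas1a (chromosome 5, 121346265 to 121357536, minus strand) had 121 and 95.9 normalized counts in untreated and 45.8 and 38.0 in treated WT cells, and 109 and 76.1 in untreated and 65.4 and 41.5 in treated Cfp1-/- cells. Treated libraries of both lines were below the untreated ones. The WT change was -1.33 on the log2 scale (SE 0.352, adjusted p = 0.0116), a call lost without replicate 1 of untreated (-1.15) or replicate 2 of treated WT (-1.20), and the Cfp1-/- change was -0.75 (adjusted p = 0.095, and 0.0308 with the block). Oasl2 (chromosome 5, 115346943 to 115362243, plus strand) had 34 and 73.0 in untreated and 15.7 and 21.1 in treated WT cells, and 27.8 and 28.7 in untreated and 22.5 and 20.2 in treated Cfp1-/- cells. Its untreated WT libraries were above the other 6. The call of its WT change of -1.47 (SE 0.455, adjusted p = 0.0236) was lost with scaling by total counts (adjusted p = 0.0616) and without replicate 2 of untreated (-0.84) or either treated WT replicate (-1.28 and -1.71). Oasl1 had 5 and 1 raw counts in untreated and 0 and 1 in treated WT cells, and 13 and 5 in untreated and 0 and 3 in treated Cfp1-/- cells, too few for the test. Oas1a has near-identical copies in the mouse genome, and reads that match several of them are lost to the count.

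Isg20, an RNA exonuclease (chromosome 7, 86058310 to 86065248, plus strand), had 9.34 and 7.30 normalized counts in untreated and 26.2 and 19 in treated WT cells, and 7.42 and 6.76 in untreated and 29.6 and 24.1 in treated Cfp1-/- cells. All treated libraries were above all untreated ones. The log2 rise was 1.95 in Cfp1-/- (SE 0.458, adjusted p = 0.00631) and 1.45 in WT cells (SE 0.464, adjusted p = 0.0265), the latter lost without either untreated WT replicate (1.65 and 1.28) or replicate 1 of treated WT (1.21), and by the DESeq2 Wald test (adjusted p = 0.117). Eif2ak2 (PKR, the kinase that stops translation on double-stranded RNA) and Adar (an editor of double-stranded RNA) were abundant and passed no test in this fit. Eif2ak2 ranged from 842 to 1485 normalized counts, with log2 excesses in Cfp1-/- cells of 0.48 untreated (adjusted p = 0.0504, and 0.0207 with the block) and 0.48 treated (adjusted p = 0.061, and 0.0269 with the block). Adar ranged from 1324 to 1894, and its difference among treated cells was -0.34 (adjusted p = 0.0869, and 0.0458 with the block). Without the affected run these 3 adjusted p were 0.0429, 0.0405 and 0.0465.

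Isg15 is a ubiquitin-like protein attached to others after interferon, and Usp18 is the protease that removes it and damps the interferon receptor. Of these genes, only Usp18 passed a response test. Usp18 (chromosome 6, 121195924 to 121220934, plus strand) had no reads in either untreated WT library and 21 and 58 raw counts in treated WT cells. In Cfp1-/- cells it had 2 and 4 untreated and 66 and 103 treated. All treated libraries stood above all untreated ones in both lines. Usp18 rose in WT cells (adjusted p = 0.000283), where the treated mean was 15.6-fold above the floor of 3 reads per library. In Cfp1-/- cells it rose by 4.96 on the log2 scale (SE 0.622, adjusted p = 0.000305). Both were called in all 8 fits that left out 1 library. The genotype differences had adjusted p of 0.0667 untreated and 0.17 treated, and of 0.0344 and 0.0477 with the block. Isg15 (chromosome 4, 155573533 to 155574927, minus strand) had 10 and 32 raw counts in untreated and 4 and 20 in treated WT cells, and 7 and 2 in untreated and 0 and 2 in treated Cfp1-/- cells. Its treated WT libraries were above the treated Cfp1-/- ones, with a ratio of summed counts of 14.1 (exact 95% counting interval 3.51 to 124). The adjusted p of that difference was 0.0708, and 0.0284 with the block. No response of Isg15 passed the test.

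The membrane proteins differed by gene. Ifitm2 (chromosome 7, 148140736 to 148141882, minus strand) had 992 and 760 normalized counts in untreated and 1022 and 1014 in treated WT cells, and 1317 and 1923 in untreated and 1499 and 1728 in treated Cfp1-/- cells. Every Cfp1-/- library exceeded every WT library. The log2 excess was 0.91 untreated (SE 0.198, adjusted p = 0.00706) and 0.69 treated (SE 0.198, adjusted p = 0.0307). The first was lost without replicate 2 of untreated WT (0.73) or Cfp1-/- cells (0.62), and the second without any 1 of the 4 treated replicates (0.59 to 0.77). Ifitm3, a restriction factor of influenza virus (chromosome 7, 148195485 to 148196669, minus strand), had 589 and 780 in untreated and 1364 and 1628 in treated WT cells, and 795 and 584 in untreated and 840 and 991 in treated Cfp1-/- cells. Treated WT libraries were above the other 6. Ifitm3 rose in WT cells by 1.18 (SE 0.207, adjusted p = 0.00128), and its change in Cfp1-/- cells was 0.45 (SE 0.205, adjusted p = 0.0958), with a response difference of -0.73 (SE 0.29, adjusted p = 0.421). Treated Cfp1-/- cells had less, by -0.68 (SE 0.204, adjusted p = 0.0355), lost without replicate 2 of treated WT (-0.55) or either treated Cfp1-/- replicate (-0.59 and -0.80). Ifitm1 ranged from 774 to 1272 and passed no test. The Ifitm genes resemble each other, and reads that match more than 1 of them may be missing from these counts.

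Bst2 (tetherin, which holds budding virus at the cell surface, chromosome 8, 74058163 to 74061336, minus strand) had 142 and 300 normalized counts in untreated and 131 and 249 in treated WT cells, and 61.2 and 69.3 in untreated and 60.3 and 55.9 in treated Cfp1-/- cells. Every WT library exceeded every Cfp1-/- library. The log2 difference was -1.73 untreated (SE 0.41, adjusted p = 0.0105) and -1.69 treated (SE 0.417, adjusted p = 0.0169), and the responses to doxorubicin, -0.16 for WT and -0.13 for Cfp1-/- cells, did not pass. The untreated call was lost without replicate 2 of untreated WT (-1.09) or replicate 1 of untreated Cfp1-/- cells (-1.62), and the treated call without replicate 2 of treated WT (-1.15) or either treated Cfp1-/- replicate (-1.76 and -1.63).

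**Figure D4:**
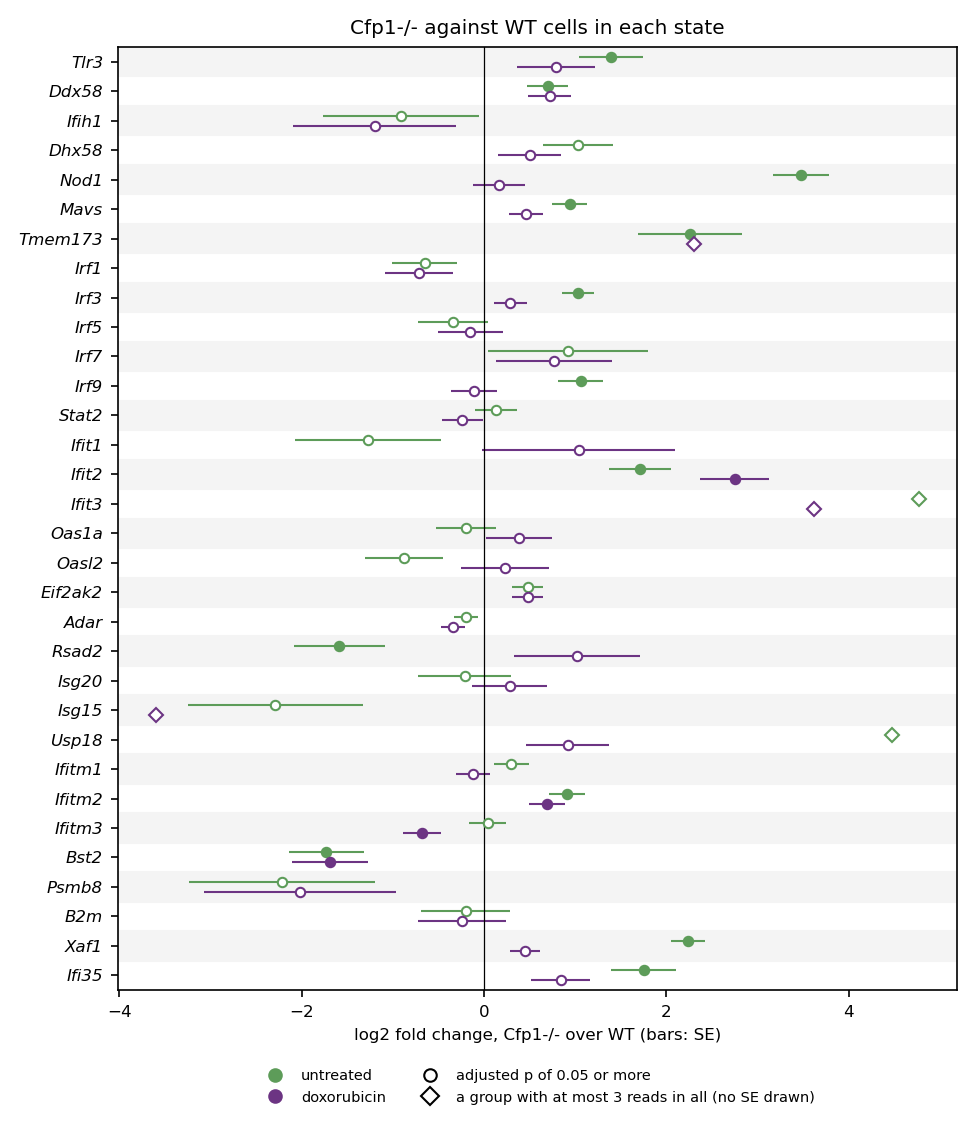
Log2 fold change between Cfp1-/- and WT cells of 32 members, untreated and with doxorubicin, with SE bars. Filled symbols passed an adjusted p of 0.05, and diamonds mark fits in which a group had at most 3 reads in all. Nod1 (3.48) and Xaf1 (2.24) stand to the right among untreated cells and lie at 0.16 and 0.45 among treated ones. Bst2 stands to the left in both states (-1.73 and -1.69).

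Psmb8 differed between replicates of every group. Psmb8, an immunoproteasome subunit (chromosome 17, 34334666 to 34338399, plus strand), had 30.6 and 194 normalized counts in untreated and 32.7 and 140 in treated WT cells, and 5.56 and 40.6 in untreated and 11.2 and 30.8 in treated Cfp1-/- cells. Replicate 2 exceeded replicate 1 in all 4 groups, by 2.75-fold to 7.29-fold. The comparison of replicate 2 with replicate 1, added after the data were seen, gave 2.29 on the log2 scale for Psmb8 (SE 0.271, adjusted p = 0.00149), the only member called among 32 (background 3.74% of genes). Within pairs of the same number, Psmb8 was lower in every Cfp1-/- library than in the WT library. Without the block its difference was -2.22 untreated (adjusted p = 0.121) and -2.02 treated (adjusted p = 0.183), and with the block it was -2.22 (adjusted p = 0.000525) and -1.95 (adjusted p = 0.00251). B2m, the invariant chain of class I molecules, had 168 and 383 in untreated and 173 and 523 in treated WT cells, and 194 and 274 in untreated and 284 and 296 in treated Cfp1-/- cells, and passed no test (replicate difference 0.82, SE 0.216, adjusted p = 0.0584). What the replicate numbers share is not stated in the sources used here.

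**Figure D5:**
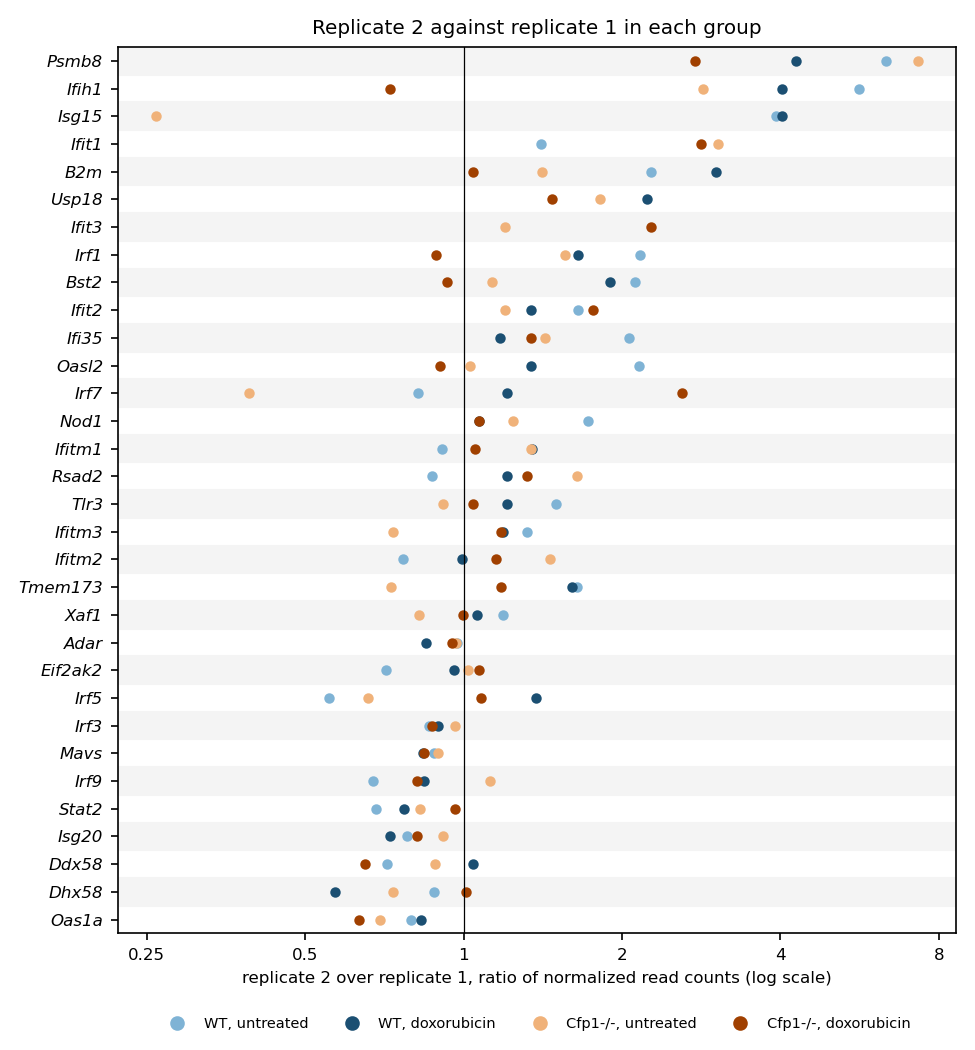
Ratio of replicate 2 to replicate 1 in normalized read counts (log axis) of 32 members, with 1 point per group and no point where replicate 1 had no reads. Psmb8 lies between 2.75 and 7.29 in the 4 groups, while Xaf1 lies between 0.822 and 1.19.

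Xaf1, an interferon-induced partner of the apoptosis inhibitor XIAP (chromosome 11, 72115131 to 72127235, plus strand), rose in both lines and differed in the size of the rise. It had 57.8 and 68.8 normalized counts in untreated and 977 and 1034 in treated WT cells, and 321 and 264 in untreated and 1355 and 1353 in treated Cfp1-/- cells. The 4 groups did not overlap. Its log2 rise was 4.04 in WT (SE 0.191, adjusted p = 1.65e-06) and 2.25 in Cfp1-/- cells (SE 0.169, adjusted p = 1.27e-05), both called in all 8 fits that left out 1 library. The difference between the responses was -1.78 (SE 0.243, adjusted p = 0.0317, and 0.00415 with the block). That call was lost without any 1 of the 8 replicates, where the value stayed between -1.65 and -1.94 and adjusted p ran from 0.0552 to 0.191. Untreated Cfp1-/- cells started 2.24 higher (SE 0.185, adjusted p = 8.01e-05), and treated ones ended 0.45 higher (SE 0.16, adjusted p = 0.0631, and 0.0335 with the block).

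Ifi35, a leucine zipper protein induced by interferon (chromosome 11, 101309721 to 101320012, plus strand), had 31.4 and 64.6 normalized counts in untreated and 166 and 194 in treated WT cells, and 129 and 184 in untreated and 272 and 363 in treated Cfp1-/- cells. Untreated WT libraries were the lowest and treated Cfp1-/- libraries the highest. It rose by 1.97 (SE 0.357, adjusted p = 0.00154) in WT and by 1.06 (SE 0.327, adjusted p = 0.0228) in Cfp1-/- cells on the log2 scale, the second call being lost without replicate 1 of untreated (0.82) or replicate 2 of treated Cfp1-/- cells (0.84). The untreated difference was 1.75 (SE 0.355, adjusted p = 0.00517) and the treated one 0.84 (adjusted p = 0.0875, and 0.0134 with the block). The response difference, -0.91 (SE 0.479, adjusted p = 0.553), did not pass.

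Other genes of the pathway were read from lists of ligands, receptors, sensors, factors and targets that hold none of the 34 members. Interferon genes themselves were near silent: of 19 ligand genes in the table, 14 had no read in any library, Ifnb1 among them, and the highest count was 3 reads (Ifnk). None could be tested. Of 16 receptors, kinases, STATs and their regulators, 3 rose and 3 fell in each line with doxorubicin. Of 26 tested pattern receptors and adaptors, 10 rose and 2 fell in WT and 11 rose and 3 fell in Cfp1-/- cells, and 8 were higher and 8 lower in untreated Cfp1-/- cells. Of 12 NF-kappaB subunits and inhibitors, 5 rose in WT, and 1 rose and 1 fell in Cfp1-/- cells. Of 6 other interferon regulatory factors, 3 rose in WT, and 4 rose and 1 fell in Cfp1-/- cells. Among 61 other interferon-stimulated genes 14 rose and 11 fell in WT and 14 rose and 12 fell in Cfp1-/- cells, and of 14 antigen processing and class I genes 2 rose and 1 fell in WT and 3 rose in Cfp1-/- cells. In all, 54 of 135 tested genes (40.0%) changed in WT and 56 (41.5%) in Cfp1-/- cells, and 51 (37.8%) differed between untreated lines, against 48.3%, 48.8% and 34% of all genes. With the block, calls among the 61 other interferon-stimulated genes went from 25 to 40 in WT and from 26 to 40 in Cfp1-/- cells, and those among the antigen processing genes from 3 to 6 and from 3 to 5, while the share of all genes called went from 48.3% to 55.9% and from 48.8% to 57.0%. For a different response between the lines, edgeR called 0 of the 135, against 0.235% of all genes. DESeq2 called 2 and edgeR with the block 1, and 13 had an unadjusted p under 0.05 in edgeR without the block. For these last counts no share of all genes was taken, so they cannot be set against all genes.

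Within these lists the study's limits were passed by 20 genes in at least 1 comparison. How many of all genes pass them in at least 1 comparison was not counted, so the 20 cannot be set against all genes. Of the 12 with the largest changes, 10 are described here. Tap1, the peptide transporter of class I presentation, had 75.6 and 162 normalized counts in untreated and 1833 and 2152 in treated WT cells, and 59.3 and 81.1 in untreated and 1182 and 1467 in treated Cfp1-/- cells. It rose by 4.13 (SE 0.323, adjusted p = 1.39e-05) and 4.27 (SE 0.331, adjusted p = 1.43e-05) on the log2 scale, while Psmb8 and B2m, described above, passed no response test. Other rises in both lines were those of Parp10 (3.39 and 3.76) and Trim56 (1.94 and 3.20), the last of which was also 2.22 lower in untreated Cfp1-/- cells (-2.22, SE 0.278). Plscr1 fell in both, with -2.19 (SE 0.293) and -1.88 (SE 0.285).

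Zbp1, a sensor of Z-form nucleic acid, had 11.9 and 26.1 normalized counts in untreated and 128 and 132 in treated WT cells, and 56.6 and 73.5 in untreated and 566 and 498 in treated Cfp1-/- cells. All 4 groups stood apart. It rose by 2.85 on the log2 scale in WT (SE 0.345, adjusted p = 0.000148) and by 3.07 in Cfp1-/- cells (SE 0.306, adjusted p = 5.15e-05). Cfp1-/- cells were above WT cells by 1.83 untreated (SE 0.349, adjusted p = 0.00389) and by 2.05 treated (SE 0.292, adjusted p = 0.00162). Ikbke, a kinase that activates Irf3, rose by 3.27 in WT (SE 0.294, adjusted p = 2.77e-05) and by 2.49 in Cfp1-/- cells (SE 0.268, adjusted p = 7.77e-05). Trim30a rose by 2.13 in Cfp1-/- cells (SE 0.303, adjusted p = 0.000403), and its WT response was 1.03 (SE 0.389, adjusted p = 0.0526). Its larger differences were between the lines. Cfp1-/- cells were higher by 2.55 untreated (SE 0.358, adjusted p = 0.000916) and by 3.65 treated (SE 0.34, adjusted p = 0.000249). Gbp1, a guanylate-binding protein gene, had 348 and 1505 raw counts in untreated and 77 and 574 in treated WT cells, and 0 and 3 in untreated and 1 and 5 in treated Cfp1-/- cells. The ratio of summed counts in untreated cells was 654 (exact 95% counting interval 223 to 3170), WT over Cfp1-/-. Trim12a went the other way, with 4 to 8 raw counts in 3 of the WT libraries and 0 in replicate 1 of treated WT, against 305 and 523 in untreated and 55 and 94 in treated Cfp1-/- cells. It fell in Cfp1-/- cells by 2.26 (SE 0.453, adjusted p = 0.00272), and its WT response was -0.63 (SE 0.925, adjusted p = 0.605). Trim34a was 2.24 higher in untreated Cfp1-/- cells (SE 0.234, adjusted p = 0.000227) and fell in both lines (-0.79 in WT and -1.26 in Cfp1-/- cells). The Gbp and Trim12, Trim30 and Trim34 genes have close copies, so reads shared with a copy were left uncounted and their values are uncertain.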

How the data were processed

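Strand-specific libraries were made by the authors from RNA depleted of ribosomal RNA, and reads were aligned to NCBIm37 (mm9) with STAR and counted over exons of Ensembl genes with HTSeq-count, which keeps unambiguous sense-strand reads. The deposited table holds raw counts per technical run, and a second deposited table holds counts summed over the runs and divided by DESeq size factors (normalized signal per biological replicate). Runs were summed here. Genes passing filterByExpr were tested with edgeR 4.0.16 (R 4.3.3, TMM scaling, quasi-likelihood test, 4 group coefficients, all 8 biological replicates), which was tested on simulated data, with Benjamini-Hochberg adjustment over 15758 genes and a threshold of 0.05. The SE given with an edgeR log2 change was derived from the test, as the absolute change divided by the square root of the F statistic. DESeq2 1.42.0 and other settings were alternatives. Samples were grouped by their genotype and treatment labels.

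The 34 members and all lists were chosen with earlier results of these data known. Members called in any comparison were given in all 8 replicates, others by range or, where a value turned on single replicates (Ifit1, Isg15, Psmb8, B2m, chosen after their values were seen), also in all 8, and pathway genes by count, with at most 12 chosen by the study's limits, of which 2 are not reported here. Replicates with the same number deviated together from their group means in each pair of groups (correlation 0.176 to 0.573 over 12634 genes). The main fit had no replicate block and did not pair them. Values from a second fit with the number as a block are given where they change a call. Neither the labels nor the study's methods say what a number shares. Totals of 14880589 to 29422711 counts per replicate set the precision, and a floor of 3 counts and exact intervals cover counting error only. The promoter search used RefSeq sequences of GRCm38.p6. The technical runs agreed within sampling noise for 6 of 8 replicates (chi-square per degree of freedom 0.998 to 1.05), against 9.61 for replicate 1 of treated WT and 42.9 for replicate 1 of treated Cfp1-/- cells.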

Additional observations from a re-analysis of the deposited data

Results flagged for a closer look

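For 2 members the test of the difference itself found that the response to doxorubicin differed between the lines. Nod1 had a difference of -3.32 on the log2 scale (Cfp1-/- response minus WT response) and moved in opposite directions. Xaf1 had a difference of -1.78 and rose in both lines, from a higher untreated level in Cfp1-/- cells. The adjusted p in edgeR was 0.0317 for each, and was 0.0023 for Nod1 and 0.00415 for Xaf1 with the replicate block. The call was lost in 6 of 8 fits that left out 1 replicate for Nod1 and in 8 of 8 for Xaf1, with values of -3.78 to -3.01 and -1.94 to -1.65. With 2 replicates per group, no test for a single library standing apart within a group was made.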

How the results depend on the processing

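Nod1 and Xaf1 kept their direction in every setting run, and no member's direction turned in a called result. With DESeq2 size factors all 160 member results kept their side of the threshold, and with the replicate block 143 did and 17 gained a call. Values with the block are given beside the results they change. In the leave-one-out fits 1163 results kept their side, 91 lost a call and 21 gained 1. Calls lost in settings not named beside the result were those of Dhx58 in Cfp1-/- cells (adjusted p = 0.0548) and Isg20 in WT cells (0.1) with first technical runs only, of Tlr3 in WT cells with these (0.0642) or with only the 2 groups compared (0.0745), of Oasl2 in WT cells with only these groups (0.0602), of Ifit3 in Cfp1-/- cells (0.0785), Rsad2 in untreated (0.0587) and Ifitm3 in treated cells (0.0576) with total count scaling, and of Tmem173 in treated (0.0818) and Rsad2 in untreated cells (0.0687) with no filter on low counts. Depth limits the members at the floor.
Under the study's limits, members called higher were 1 in the WT response, 1 in the Cfp1-/- response, 2 in untreated and 0 in treated Cfp1-/- against WT cells. Those called lower were 2, 3, 0 and 0, and 1 response differed between the lines. For untreated Cfp1-/- against WT cells, members called lower (2 as reported) were 1 with total count scaling, 1 in the DESeq2 Wald test, 1 with first technical runs only, 4 with the replicate block and 5 with the block without the affected run. For treated cells, members called higher (4 as reported) were 7 with total count scaling, 10 with the replicate block and 10 with the block without the affected run, and members called lower (2 as reported) were 1, 5 and 5. The cause of these shifts was not tested. With the replicate block, 22.3% of all genes were higher and 21.3% lower among untreated cells, and 20.5% and 16.2% among treated cells. Shares of all genes were not taken for the other settings or for the study's limits between lines. They were not taken for the fits that left out 1 replicate either. Those counts therefore cannot be set against all genes. Leaving out 1 replicate gave 7 to 10 higher and 4 to 7 lower in the WT response, 4 to 7 higher and 5 to 7 lower in the Cfp1-/- response, 0 to 1 different responses, 8 to 14 higher and 0 to 5 lower in untreated cells, and 1 to 5 higher and 0 to 3 lower in treated cells. The lowest counts came without replicate 2 of untreated WT for both directions of the WT response and of the untreated difference (for members called lower in the latter, also without replicate 1 of untreated Cfp1-/- cells), without replicate 2 of treated Cfp1-/- cells for both directions of the Cfp1-/- response (for members called higher, also without replicate 2 of untreated Cfp1-/- cells), and, for treated cells, without either treated WT replicate or replicate 1 of treated Cfp1-/- cells (higher) and without replicate 2 of treated WT or either treated Cfp1-/- replicate (lower). No different response was called in the 6 fits that left out a treated replicate or an untreated Cfp1-/- one. A lone sample left in a group was assumed to vary like the others.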
